A study of Mus musculus with 8 samples.

Results

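The 5 selenoprotein genes described here serve selenium transport, the endoplasmic reticulum (ER) and thyroid hormone activation: Sepp1, Sephs2, Sep15, Vimp (alias Sels) and Dio1. They were picked by symbol, with earlier results of these data known. All 5 had a line among the 7500 genes of the deposited ribosome profiling table of mouse liver. Ribosome profiling sequences the short mRNA pieces that ribosomes shield from nuclease, so that footprints on a coding sequence report how densely it was occupied by ribosomes. Male wild-type FVB/N mice received, from weaning and for 6 weeks, a torula yeast diet low in selenium with nothing added (0 Se, 2 mice, 4 libraries) or with 0.1 ppm selenium as sodium selenite (0.1 Se, 2 mice, 4 libraries). The repeat libraries of a mouse are not separate animals. Each value below is the authors' log2 CPM (counts scaled to library size), an average over the 8 libraries and therefore over both diets. No value of a single library was used, so levels carry no SD and no n, the depth behind them is unknown, and the diets were not compared here. Whether neighbouring levels differ beyond the spread between mice could therefore not be tested.

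Selenoproteins carry selenium as selenocysteine (Sec), which is inserted at a UGA codon that in other mRNAs ends translation. A stem-loop in the 3′ UTR, the SECIS element, and its binding proteins direct this reading, and a ribosome that does not insert Sec stops at the UGA. Sepp1 encodes selenoprotein P, which the liver secretes to carry selenium to other organs. Sephs2 encodes the selenophosphate synthetase that makes the active selenium donor for Sec synthesis, so that it is a selenoprotein that takes part in making selenoproteins. Sep15 encodes an ER protein that binds the glycoprotein folding sensor UGGT, and Vimp encodes selenoprotein S, an ER membrane protein that recruits the ATPase VCP to the export of misfolded proteins. Dio1 encodes the deiodinase that converts thyroxine to the active hormone T3.

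The sequences around the first UGA are shown because counted footprints can lie before, at or after this codon, in Vimp only before it. They are the mRNA sense in DNA letters, 5′ to 3′, read from the NCBIM37 (mm9) genome, and the capitals mark the UGA-Sec codons.
Sepp1, chr15:3224818-3224876, plus strand, exon 2: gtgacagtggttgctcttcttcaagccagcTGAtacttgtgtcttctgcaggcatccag
Sephs2, chr7:134417215-134417277, minus strand, exon 1: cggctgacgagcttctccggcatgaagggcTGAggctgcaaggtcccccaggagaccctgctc
Sep15, chr3:144253579-144253639, plus strand, exon 3: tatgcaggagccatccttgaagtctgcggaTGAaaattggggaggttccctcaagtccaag
Vimp, chr7:73233700-73233738, plus strand, exon 6, ending with the stop codon: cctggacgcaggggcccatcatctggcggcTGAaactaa
Dio1, chr4:106970275-106970337, minus strand, exon 2: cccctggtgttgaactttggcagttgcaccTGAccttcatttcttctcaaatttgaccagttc
The end of the Sepp1 reading frame, chr15:3229519-3229710, plus strand, exon 5, is shown as the stretch that packs 7 of its UGA codons before the TAA stop: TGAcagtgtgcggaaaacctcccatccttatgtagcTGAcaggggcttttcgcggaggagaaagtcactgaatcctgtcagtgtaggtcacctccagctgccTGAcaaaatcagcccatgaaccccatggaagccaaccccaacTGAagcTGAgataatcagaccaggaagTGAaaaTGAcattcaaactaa

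Sepp1 had by far the most UGA codons of the 5 genes. Its annotated reading frame of 380 codons held 10 of them, whereas Sephs2 (452 codons), Sep15 (162 codons), Vimp (190 codons) and Dio1 (257 codons) held 1 each. The first UGA of Sepp1 is codon 59. A run of 200 codons separates it from the second at codon 259, and the other UGA codons follow at 277, 318, 330, 352, 366, 368, 375 and 377. Codon 59 lies in exon 2 and the remaining 9 lie in exon 5, the last exon. Sepp1 also has 18 cysteine and 23 histidine codons.

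The place of the first UGA divided the 5 reading frames in different ways. It fell early in Sepp1 and in Sephs2, where it is codon 63, so that 84.5% and 86.1% of the frame lie after it. It fell near the middle in Dio1, at codon 126, with 51.0% of the frame after it, and in Sep15, at codon 93, with 42.6% after it. In Vimp it is codon 189, and a single sense codon, 0.526% of the frame, follows before the TAA stop. The count behind each level left out 20 codons, taken here as the start codon with 15 codons after it and the stop codon with 3 codons before it. Of the codons that were counted, 88.1% in Sepp1, 89.1% in Sephs2, 46.2% in Sep15 and 53.8% in Dio1 lie after the first UGA. In Vimp this share is 0%, since its UGA itself is among the codons left out. The level of Vimp is therefore made only of footprints assigned upstream of Sec insertion, while the levels of the other 4 genes join footprints from both sides of the UGA in proportions that the table does not give.

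**Figure D1:**
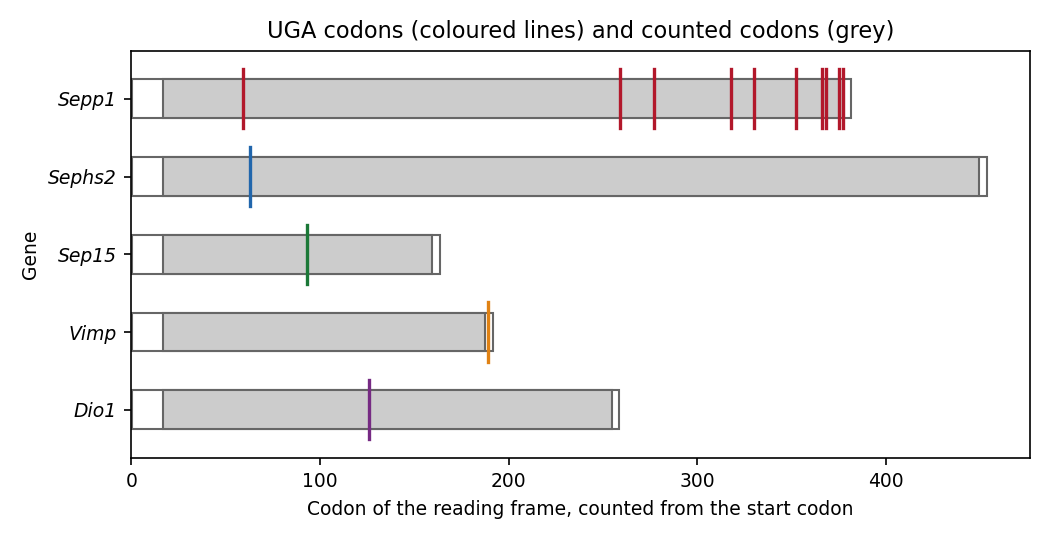
Reading frames of the 5 genes in codons from the start codon, with counted codons in grey, codons left out in white and each UGA as a coloured line. Sepp1 has 10 UGA codons, 9 of them at codon 259 or later, and the UGA of Vimp lies beyond the counted codons.

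The neighbourhood of these UGA codons had features that the choice of genes did not use. A cysteine codon lay within 3 codons of the first UGA in 4 of the 5 genes: at 2 codons before it in Sep15 and Dio1, 2 codons after it in Sephs2 and 3 codons after it in Sepp1. In Vimp the nearest cysteine codon lay 14 codons before it. Over all 14 UGA codons of the 5 genes, 6 had a cysteine codon that near, of which 3 are in Sepp1. Across 11645256 codons of the longest annotated coding sequence of each mouse gene, 12.8% had a cysteine codon within 3 codons. This share is not matched to the cysteine content of the 5 genes, and Sepp1 has 18 cysteine codons among 380. Whether the counts exceed what that content gives was not tested. The arrangement is not particular to the 5 genes: in Sepw1 and 2700094K13Rik (selenoprotein H) a cysteine codon lay 3 codons before the UGA. The nearest lay 29 codons after it in Gpx1 and 21 codons before it in Msrb1, and Selk has no cysteine codon. The base after the UGA was C at 6, A at 4, G at 3 and T at 1 of the 14 codons. Among 9900 annotated UGA stop codons of the genome C followed in 22.1%, A in 25.8%, G in 36.1% and T in 16.1%. Over the 19 UGA codons of the listed selenoproteins matched to a transcript, these 14 included, C followed 7, G 6, A 5 and T 1. The counts for the 5 genes are descriptions, and the UGA codons of Sepp1 share a single mRNA.

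The first UGA also differed in its place relative to exon junctions. In Sepp1 it lies 357 bases upstream of the last junction of the annotated transcript, in Dio1 303 bases and in Sep15 78 bases upstream. In Vimp it lies in the last exon, and Sephs2 is annotated as 1 exon. For Dio1 the annotation holds 1 further transcript that ends at this very UGA and is marked as a target of nonsense-mediated decay, the pathway that destroys mRNAs with an early stop. The genes span chr15:3218547-3230508 (Sepp1, 5 exons), chr7:134416075-134417433 (Sephs2), chr3:144233268-144260644 (Sep15, 5 exons), chr7:73224535-73234298 (Vimp, 6 exons, annotated as H47) and chr4:106964070-106979774 (Dio1, 4 exons). None of the 30-base stretches of the counted coding sequence of these 5 genes occurred in an annotated protein-coding transcript of another gene at full identity (0% in each gene). Matches with mismatches and transcripts outside the protein-coding set were not checked.

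Levels are compared between genes per kilobase of the counted coding sequence. Sepp1 stood highest of the 5 genes, with a log2 CPM of 9.59, or 771 CPM, on 1083 counted bases, which is 712 CPM per kilobase. It ranked 138 of the 7500 listed genes, and 98.2% of them had a lower level per kilobase. Just below it in the order was Hrg (711.9 CPM per kilobase), the plasma histidine-rich glycoprotein. Sepp1 held 65.0% of the CPM of the 5 genes and 0.0900% of the CPM of all listed genes.

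Sephs2 came next, with a log2 CPM of 7.98, or 252 CPM, on 1299 counted bases. Its 194 CPM per kilobase put it at rank 546, above 92.7% of listed genes, between Ndufv1 (194.0), a subunit of mitochondrial complex I, and Hsd17b6 (193.1), a hydroxysteroid dehydrogenase. The level of Sepp1 was 3.67 times that of Sephs2.

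The ER selenoproteins followed closely together. Sep15 had a log2 CPM of 5.91, or 60.1 CPM, on 429 counted bases and so 140 CPM per kilobase, at rank 724 and above 90.3% of listed genes. Its neighbours were Dnajb11 (140.3), an ER co-chaperone, and Hnrnpf (139.4), an RNA-binding protein. Vimp had a log2 CPM of 6.02, or 64.9 CPM, on 513 counted bases and so 126 CPM per kilobase, at rank 783 and above 89.6%. Its neighbours were Ccbl2 (127.0), a kynurenine aminotransferase, and Cs (126.3), citrate synthase. Per kilobase Sep15 stood at 1.11 times Vimp, whereas by CPM, with no allowance for length, it stood at 0.926 times Vimp, so the order of this pair rests on the length adjustment.

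Dio1 was the lowest of the 5, with a log2 CPM of 5.25, or 38.1 CPM, on 714 counted bases. Its 53.3 CPM per kilobase gave rank 1484, above 80.2% of listed genes, between Il6st (53.9), the signalling chain of the interleukin 6 receptor, and Ube2m (53.3), a NEDD8-conjugating enzyme. The level of Sepp1 was 13.3 times that of Dio1, and that of Sephs2 was 3.63 times. All 5 genes stood above the median of the listed genes, 11.3 CPM per kilobase, and 4 of them above Dio1 were more than 3 times the upper quartile of 37.5.

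**Figure D2:**
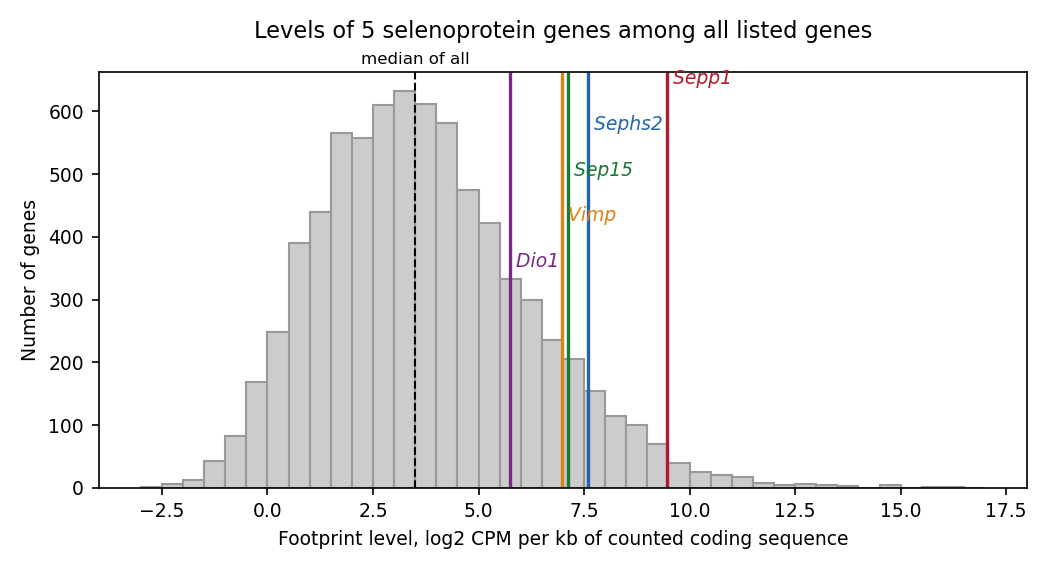
Number of listed genes by footprint level, in log2 CPM per kilobase of counted coding sequence, with the 5 genes as coloured lines and the median of the 7500 genes dashed. All 5 lines lie to the right of the median, from Dio1 at 5.74 to Sepp1 at 9.48.

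Among the 13 listed selenoproteins, the 5 genes made up much of the upper part of the order. Of 24 selenoprotein genes looked for, 13 had a line and 11 had none (Gpx2, Gpx3, Gpx4, Dio2, Dio3, Ept1, Selm, Sepn1, Selo, Selt and Selv), which were not analysed here. A missing line does not mean absence from the liver, since the paper reports liver footprints on Gpx4. Per kilobase the order was Gpx1 (1139 CPM), Msrb1 (972), Sepp1, Sephs2, Sep15, Vimp, Selk (62.2), Dio1, Txnrd1 (36.5), Sepw1 (13.3), Txnrd2 (9.37), 2700094K13Rik, the gene of selenoprotein H (6.99), and Txnrd3 (3.58). Gpx1, which encodes the main cytosolic glutathione peroxidase, and Msrb1, a methionine sulfoxide reductase, were thus the listed selenoproteins above Sepp1 per kilobase. Without the length adjustment Sepp1 (771 CPM) stood above both Gpx1 (622 CPM) and Msrb1 (283 CPM), Txnrd1 (65.1 CPM) stood above Vimp, Sep15 and Dio1, and Selk (14.0 CPM) stood below Dio1. The median of the 5 genes was 140 CPM per kilobase and that of the 8 others was 24.9. This order and these medians set side by side genes whose counted codons lie on different sides of the UGA. After the first UGA lie 100% of them in Sepw1, 77.3% in 2700094K13Rik, 18.6% in Msrb1, 0% in Selk and most in Gpx1. For Txnrd1, Txnrd2 and Txnrd3 no share was obtained. Sepw1 (2.74 CPM) and 2700094K13Rik (2.03 CPM) also have low values, which a small prior count in the authors' averages may raise. Each level also averages both diets. The paper reports that liver footprints on Sepw1, selenoprotein H and Gpx1 were higher with added selenium, by unequal factors. The order on a single side of the UGA, or within a single diet, was not tested. The 5 genes held 54.0% of the CPM on listed selenoproteins and Sepp1 alone held 35.1%.

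**Figure D3:**
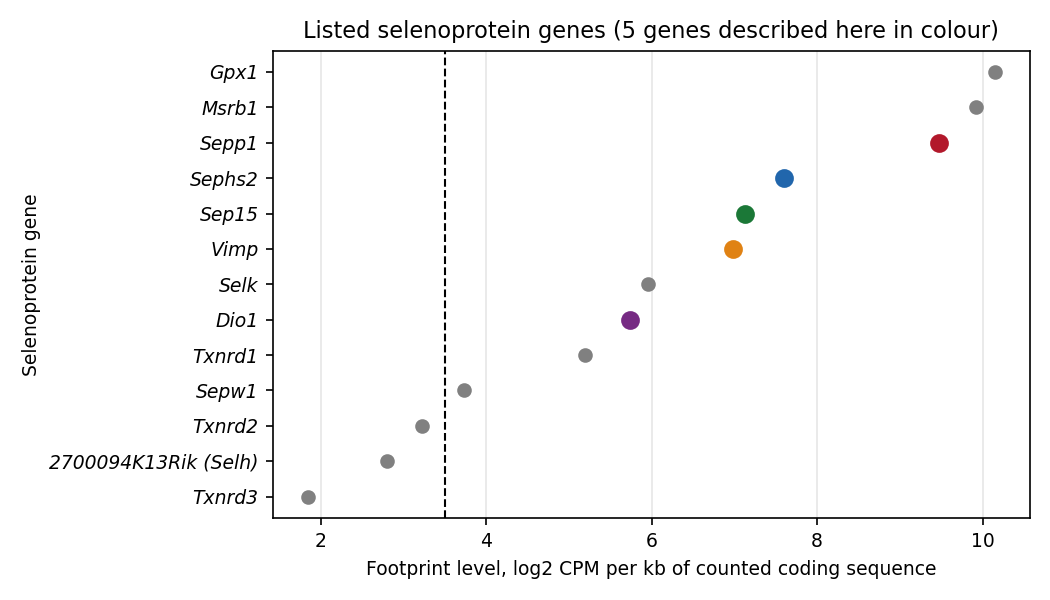
Footprint level of the 13 listed selenoprotein genes in log2 CPM per kilobase, in descending order, with the 5 genes in colour and the median of all 7500 listed genes dashed. Sepp1 comes after Gpx1 and Msrb1, and Dio1 comes after Selk, an order that turns for these genes when CPM is not adjusted for length.

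Sephs2 works in a pathway whose other listed members all had lower levels, per kilobase and also by CPM. Of 9 genes of Sec synthesis and insertion, 6 were listed and 3 were not (Pstk, Secisbp2l and Trnau1ap). Their levels were 55.1 CPM per kilobase for Scly, which frees selenium from Sec, 54.0 for Sars, which charges the Sec tRNA with serine, and 25.1 for Sepsecs, which completes the Sec residue on the tRNA. Eefsec, the elongation factor that brings this tRNA to the ribosome, had 20.8, Sephs1 had 14.5 and Secisbp2, which binds the SECIS element, had 4.79. Per kilobase all 6 were below Sephs2, Sep15, Vimp and Sepp1, and 4 of 6 were below Dio1. By CPM all 6 remained below Sephs2 and Sepp1, but Sars (83.8 CPM) and Scly (68.2 CPM) stood above Sep15 and Vimp. Sephs2 stood at 13.3 times Sephs1, its paralog without Sec. Of 3 genes of selenium uptake and excretion, Inmt, a methyltransferase that can methylate selenium, was listed at 761 CPM per kilobase, slightly above Sepp1 but below it by CPM (560 CPM), and the selenoprotein P receptors Lrp8 and Lrp2 had no line.

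The ER genes that work with Sep15 and Vimp covered a wide range. In the glycoprotein folding list all 5 genes were listed: the chaperones Calr (2443 CPM per kilobase) and Canx (472) and the disulfide isomerase Pdia3 (818) stood above Sep15, whereas the UGGT genes Uggt1 (28.9) and Uggt2 (0.446) stood below it. By CPM Uggt1, a long gene (133 CPM), stood above Sep15. In the ER-associated degradation list 7 of 11 were listed. Vcp (273), the ATPase that Vimp binds, and Derl2 (155), a channel component, stood above Vimp. The other 5, Sel1l (79.7), Syvn1 (72.9), Ufd1l (56.4), Nploc4 (38.4) and Derl3 (2.83), stood below it, and 4 genes of the list had no line. By CPM Sel1l (184 CPM), Syvn1 (130 CPM) and Nploc4 (67.9 CPM) stood above Vimp, so that 2 of 7 remained below it.

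The thyroid hormone genes around Dio1 were also spread widely. Of 8, 5 had a line, among them Ttr (28165 CPM per kilobase), which carries thyroxine in plasma, Thrsp (3530), a thyroid hormone responsive gene of lipid synthesis, the thyroxine-binding globulin Serpina7 (44.6) and the receptor Thrb (7.88). Dio1 lay above Serpina7 and Thrb and below Ttr and Thrsp, but by CPM Serpina7 (54.4 CPM) stood above Dio1. Thra, Slc16a10 and Crym had no line.

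Sepp1, a secreted protein, lay low among abundant plasma proteins of the liver. Of 9 such genes, all listed, 8 stood above it, from Ambp (2855 CPM per kilobase) to Apoa2 (83115), and Serpina1a (194) stood below it. The value of Serpina1a is uncertain, since it belongs to a cluster of near-identical genes and reads were kept where they aligned uniquely. The tissue label was checked with markers. The 5 of 6 hepatocyte markers with a line ranged from 812 to 51734 CPM per kilobase (Cps1 had no line). The medians of the markers of other liver cells were 26.5 for Kupffer cells (4 of 5 listed, Cd68 without a line), 13.3 for endothelial cells (4 of 4), 8.92 for stellate cells (4 of 4) and 2.28 for biliary cells (2 of 3, Epcam without a line). The highest marker of these 4 cell types reached 171, 22.1, 208 and 2.84 CPM per kilobase, in the same order. The highest Kupffer marker thus stood above Sep15, Vimp and Dio1, and the highest stellate marker also above Sephs2. The other 3 Kupffer and 3 stellate markers with a line stood below Dio1. In a whole liver a lower level cannot be told apart from fewer cells of the type that uses the gene.

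**Figure D4:**
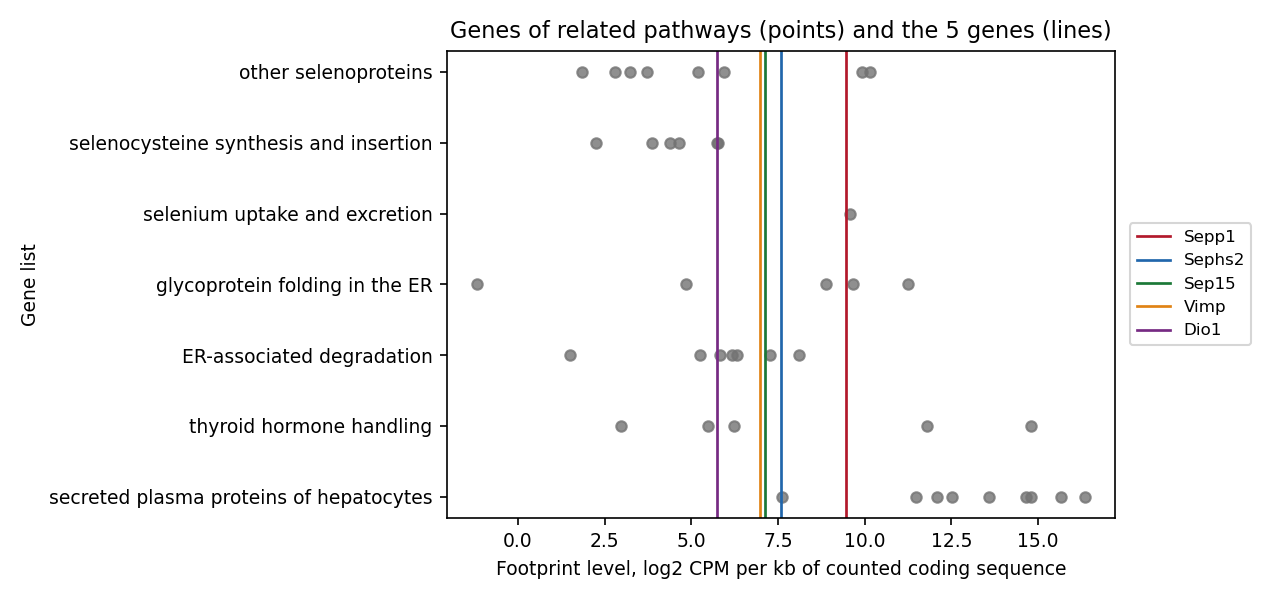
Footprint level in log2 CPM per kilobase of the listed genes of 7 gene lists (grey points, 1 row a list) with the 5 genes as coloured lines. All 6 listed genes of Sec synthesis and insertion lie to the left of the Sephs2 line, and 8 of 9 plasma protein genes lie to the right of the Sepp1 line.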

How the data were processed

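Ribosome footprints from 8 liver libraries of 4 mice were analysed from a single table that the authors made in edgeR (version not given in the sources used here). Per the study's methods, trimmed reads free of ribosomal RNA were aligned with Bowtie to the longest RefSeq mRNA of each gene (mm9) and unique hits on the coding sequence, without its ends, were counted. The deposited log2 CPM of each gene is the authors' average over all libraries. Averages that the authors made with this tool carry a small prior count, which raises the lowest values. Its linear values summed to 857014 over 7500 genes, which leaves 14.3% of the total to genes with no line if CPM was scaled to all counted reads. The remaining columns (fold change, its logarithm, p-value and false discovery rate) hold the authors' own comparison of the diets and were not used. The count test planned for the diets was not run, because counts per library were not used here. Groups came from the sample titles.

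The deposited length fell 60 bases short of an annotated coding sequence in 7093 of 7260 genes found in the GENCODE annotation of NCBIM37 (mm9), and was used as the counted length. How the 20 codons divide between the ends was taken from the study's methods and is an assumption. Levels were computed as linear CPM per kilobase, with no pseudocount or filter. Reading frames were read from the annotated transcript of the counted length with marked Sec codons, which was found for 10 of 13 listed selenoproteins (not for Txnrd1, Txnrd2 and Txnrd3). Vimp was matched as H47 through RefSeq synonyms. Named genes were all 5 genes, every listed gene of the fixed lists outside the cell markers, and the listed neighbour above and below each of the 5 in level. Some genes that this rule names are not reported here. The genes and lists were chosen with earlier results of these data known. Python 3.11.15, pandas 2.3.3, numpy 2.4.6 and matplotlib 3.10.9 were used, and the level calculation was tested on simulated data. Alternatives were a filter on low values, a pseudocount, other lengths and no length adjustment.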

Additional observations from a re-analysis of the deposited data

How the results depend on the processing

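With no replicate values, a result was taken as moved when it changed at 3 significant digits. When genes under a log2 CPM of 3 were left out, which kept 4998 genes and all 5 described here, the share of listed genes with a lower level was 97.2% for Sepp1, 89.1% for Sephs2, 85.5% for Sep15, 84.3% for Vimp and 70.3% for Dio1. With no length adjustment it was 98.1%, 94.6%, 81.1%, 82.1% and 73.3%, and Sep15 moved to position 4 and Vimp to position 3 of the 5. With the whole coding length, chosen after seeing the data because the deposited length turned out to leave out the end codons already, it was 93.1% for Sephs2, 90.0% for Sep15 and 89.3% for Vimp, with Sepp1 and Dio1 the same, and the order of the 5 was kept. Of 200 pairs of a listed pathway gene and 1 of the 5, 26 changed order with no length adjustment, and 1 did with the whole coding length, Selk (49.1 CPM per kilobase) then standing just below Dio1 (49.2). The order of the 5 was also kept in an extreme case, again chosen after seeing the data. There all footprints were assigned to the counted codons up to the first UGA. It gave 5977 CPM per kilobase for Sepp1, 1786 for Sephs2, 260 for Sep15, 126 for Vimp and 115 for Dio1. This case could only widen the lead of Sepp1 and Sephs2 over Sep15, Vimp and Dio1, since more of their counted codons lie after the UGA. The opposite case, with all footprints after the first UGA, was not run. The order is therefore not shown to hold wherever the footprints lie. A pseudocount of 1 moved no log2 level by more than 0.03. The share of the frame after the first UGA was 88.1% for Sepp1, 89.1% for Sephs2, 46.2% for Sep15, 0% for Vimp and 53.8% for Dio1 over the counted codons alone. Count-based alternatives and leaving out a mouse were not run, since values per library were not used here. No paired analysis was possible because no result comes from a test and no mouse of the 0 Se diet has a counterpart under the 0.1 Se diet.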
